A study of Mus musculus with 8 samples.

Results

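The macrophage and other myeloid genes of mouse pancreatic islets were followed through 36 named genes, chosen as a list of macrophage identity, phagocytosis, lysosome and innate sensing genes. All 36 were matched by Ensembl identifier, out of 55487 gene identifiers in each library's table. The study measured islet RNA in mice with and without insulin-degrading enzyme (Ide), a zinc metalloprotease that cleaves insulin, amylin and glucagon. Each library was total RNA from hand-picked islets, made with a low-input kit and counted per gene with RSEM. The control group was Ide+/+ (n = 5 libraries) and the other group was Ide-/- (n = 3 libraries), both on the C57BL/6J strain. The mice of both groups were 10 weeks old, labelled female, when they started 2 weeks on a high-fat diet with 60% of its energy as fat. No group on a control diet was analysed here, so every value describes islets after the high-fat diet. The labels give the genotype with no promoter or Cre, call the replicates biological, and do not say how many animals gave each library. The p-values therefore measure the spread between these libraries.

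Islet macrophages are tissue-resident phagocytes that lie close to the beta cells and their capillaries and depend on the growth factor receptor encoded by Csf1r. They take up material released by the endocrine cells, degrade it in lysosomes and present fragments of it on MHC class II molecules. They are known to become more numerous in the islets of obese mice. Their identity genes are switched on by the ETS-family factor PU.1 (encoded by Spi1), often together with IRF-family factors such as IRF8.

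Promoter sequences are shown for Ctss, C1qc and Cybb, the 3 members called lower among the 5 whose windows held a motif searched for; the other two, Pf4 and Cd68, were not called and are not shown. RefSeq promoter windows of GRCm38.p6, each 250 bases before to 50 bases after a gene's start, were matched for 27 of the 36 members, in 32 windows. Each window was searched on both strands for GAGGAAGT, a PU.1 site, and GGAANNGAA, a composite ETS and IRF element. The 2 motifs can overlap. GAGGAAGT was held by 3 of the 32 member windows (9.38%), those of C1qc, Ctss and Pf4, and by 3.2% of all 32851 promoter windows of the same length. GGAANNGAA was held by 3 of the 32 member windows (9.38%), those of Cd68, Ctss and Cybb, and by 8.24% of all windows. In the sequences, capitals mark the matches, which lie on the strand opposite to the one printed. In Ctss, at chr3:95526536-95526835 on the plus strand, the 2 motifs overlapped across the start of the gene. The windows of C1qc, at chr4:136892865-136893164, and Cybb, at chrX:9469275-9469574, are on the minus strand and are printed in the direction of transcription.
Ctss: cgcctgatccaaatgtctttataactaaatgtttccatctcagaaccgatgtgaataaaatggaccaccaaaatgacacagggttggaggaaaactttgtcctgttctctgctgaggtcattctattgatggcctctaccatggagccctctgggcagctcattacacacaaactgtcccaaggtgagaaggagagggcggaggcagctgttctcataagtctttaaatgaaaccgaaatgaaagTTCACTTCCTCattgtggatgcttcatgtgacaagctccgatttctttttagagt
C1qc: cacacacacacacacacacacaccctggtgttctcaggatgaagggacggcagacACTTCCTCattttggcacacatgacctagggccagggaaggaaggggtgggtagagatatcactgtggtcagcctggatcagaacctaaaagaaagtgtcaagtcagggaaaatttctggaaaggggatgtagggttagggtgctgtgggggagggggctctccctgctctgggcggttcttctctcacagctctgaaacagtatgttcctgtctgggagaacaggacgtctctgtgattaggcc
Cybb: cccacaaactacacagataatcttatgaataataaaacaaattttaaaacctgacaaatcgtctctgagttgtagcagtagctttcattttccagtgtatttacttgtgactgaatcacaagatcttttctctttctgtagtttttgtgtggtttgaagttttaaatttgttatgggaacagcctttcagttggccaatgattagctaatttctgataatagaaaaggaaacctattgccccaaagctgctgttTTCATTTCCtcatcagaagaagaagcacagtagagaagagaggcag
A match is a description of the sequence and was not tested as a binding site. No RefSeq window was matched for Adgre1, Csf1r, Cd14, Cd86, Itgb2, C1qa, Tyrobp, Spi1 and Tlr4.

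The libraries differed in ways that touch every value below. Total counts were 19277269 to 33371642 in the Ide+/+ libraries and 7143415 to 17445935 in the Ide-/- libraries. A list of 35 acinar genes (digestive enzymes of the exocrine pancreas) took 37.2 to 66.3% of the counts in the Ide+/+ libraries and 1.07 to 2.57% in the Ide-/- libraries, so acinar content and genotype cannot be told apart. Mitochondrial genes took 0.512 to 9.43% and 9.81 to 28.2%. Ide itself had 391, 765, 572, 481 and 256 counts in the Ide+/+ libraries and 6, 7 and 4 counts in the Ide-/- libraries, a log2 fold change of -6.74 (edgeR adjusted p = 6.2e-06). Ide+/+ replicate 1 had 692 counts of Xist, 0 of the Y-linked genes and the lowest mitochondrial share, while the other 7 libraries had at most 11 counts of Xist and at least 503 of the Y-linked Ddx3y, against their label of female. The summed shares, the number of members called, the members whose call changed and the counts of the other gene lists are therefore also given without that library. Ide+/+ replicates 2 and 3 resembled each other far more (chi-square per degree of freedom 5.22) than any other pair within a genotype (50 to 610). They still differed by more than sampling noise, but 2 libraries made from 1 RNA could do so too. Whether they are independent samples was not tested. Both were kept, so the spreads and p-values below count them as separate samples.

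Summed over all members, the macrophage and myeloid genes took less of the non-acinar and of the endocrine RNA in the Ide-/- libraries than in 4 of the 5 Ide+/+ libraries, whereas their share of all counted RNA lay within the Ide+/+ range. The 36 genes together had 2157, 16617, 12207, 7011 and 6384 counts in the Ide+/+ libraries and 5132, 3377 and 1786 in the Ide-/- libraries. As a share of all counts these were 0.00876, 0.0498, 0.0499, 0.0264 and 0.0331% against 0.0294, 0.0255 and 0.0250%. The Ide-/- shares lay inside the Ide+/+ range, with a log2 ratio of group means of -0.33.

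With the acinar genes left out of the total, the summed share was 0.0260, 0.0792, 0.0794, 0.0659 and 0.0852% in the Ide+/+ libraries and 0.0297, 0.0261 and 0.0257% in the Ide-/- libraries. The log2 ratio of group means was -1.30, and 4 of the 5 Ide+/+ libraries lay above all 3 Ide-/- libraries. Against 28 endocrine reference genes, which mark the hormone-secreting cells, the members amounted to 2.00, 5.58, 5.74, 5.95 and 12.4% of the reference counts in the Ide+/+ libraries. The Ide-/- libraries had 1.79, 1.90 and 2.53%, a log2 ratio of -1.61. Ide+/+ replicate 1 was as low as the Ide-/- libraries under both of these denominators. Without it the log2 ratios were -0.58 of the total, -1.51 of the non-acinar total and -1.84 of the endocrine reference. In bulk RNA, fewer cells of a type and less RNA of these genes per cell cannot be told apart.

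**Figure D1:**
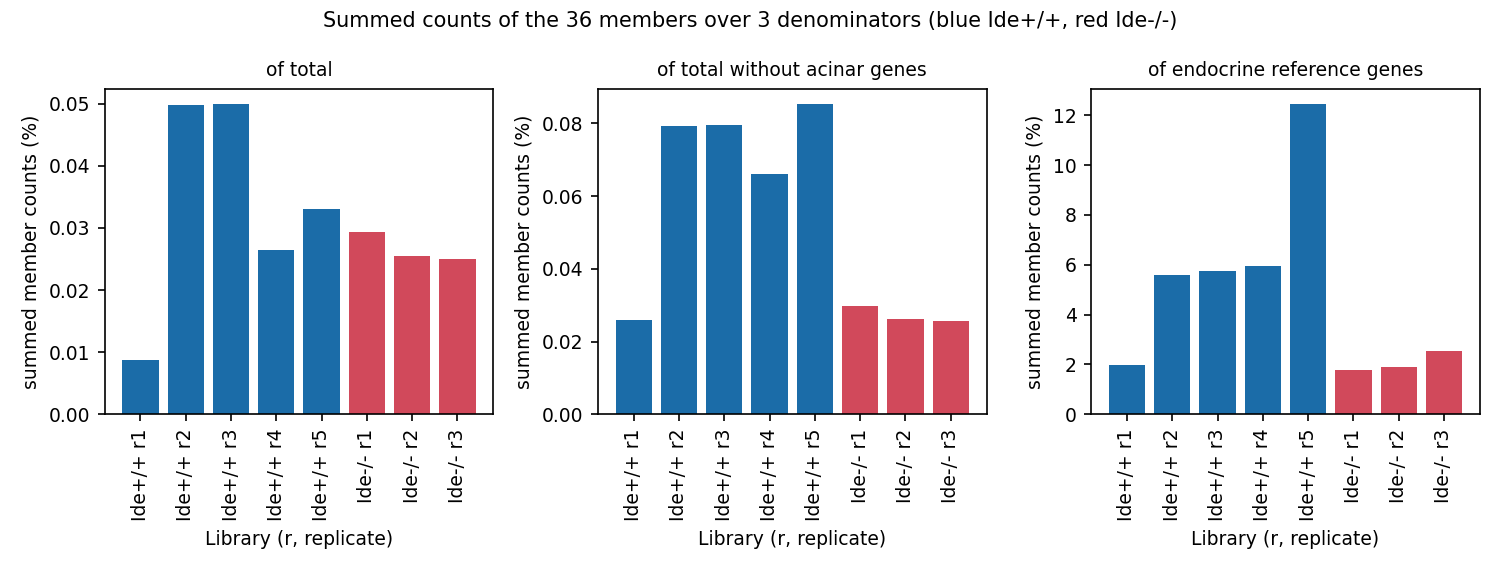
Summed counts of the 36 members as a percentage (vertical axes) of all counts, of all counts without acinar genes, and of the endocrine reference counts, with 1 bar for each library. The Ide-/- bars (red) lie within the Ide+/+ range (blue) in the left panel and below 4 of the 5 Ide+/+ bars in the other panels.

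Apoe, which encodes a lipid-carrying apolipoprotein made by macrophages and by several other cell types, supplied 40.2 to 62.9% of the member counts in the Ide+/+ libraries and 61.1 to 67.9% in the Ide-/- libraries. Without Apoe, Ctss, Lyz2 and Lgals3, 4 members that some other cell types also express, the log2 ratios were -0.30, -1.27 and -1.51, close to those of the whole list.

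Gene by gene, library sizes were first scaled with TMM, which sets the libraries level over the bulk of the genes and so takes the acinar excess largely out of the comparison. Values on this scale are given as CPM, counts relative to the scaled library size. Of the 36 members, 31 passed the low-count filter, and 20 of these fell in the Ide-/- libraries at an adjusted p under 0.05 in edgeR's quasi-likelihood test, with Benjamini-Hochberg adjustment over 16266 genes. Across all tested genes 10.6% were lower and 10.4% higher by the same rule. All 31 estimates lay below 0, so 0 were higher at an adjusted or an unadjusted p, and DESeq2 called 22 lower (background 13.5%) and 0 higher. The members that failed the filter were Itgam, Fcgr1, Cd163, Il1b and Tnf; with no filter 22 of all 36 were lower (background 5.89%), with Fcgr1, Il1b and Fcer1g added and Cd14 lost. The members' median log2 fold change was -1.61 (range -3.72 to -0.11), beside -0.01 over all tested genes. All 3 Ide-/- values lay below all 5 Ide+/+ values for 22 of the 36 members. Of the 31 tested members 19 were so separated, beside 15.6% of all tested genes.

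A second fit scaled the libraries to the endocrine reference genes, so that a fold change reads as a change relative to endocrine RNA. There 17 members were lower and 0 higher at an adjusted p under 0.05 (background 7.86% lower and 4.67% higher), with a median of -1.76 beside -0.06 over all tested genes. The 17 were all among the 20 called under TMM. The other 3, Itgax, Trem2 and Apoe, had estimates of -1.79, -1.80 and -1.62 with edgeR adjusted p of 0.065, 0.063 and 0.06. All 3 passed on this scale with no low-count filter (edgeR adjusted p 0.048, 0.034 and 0.02), without Ide+/+ replicate 1 (0.039, 0.0096 and 0.017) and under DESeq2 (0.022, 0.02 and 0.0096). They passed in only 2, 1 and 1 of the 8 fits that left out 1 library (largest edgeR adjusted p 0.26, 0.22 and 0.19). The fit with no filter lost Cd14, Lyz2 and Lgals3 on this scale (edgeR adjusted p 0.22, 0.07 and 0.09). It also gained Fcgr1 and Il1b (0.011 and 0.04). The groups were fully separated for 18 of the 36 members on this scale. Of the 31 tested members 15 were, against 15.4% of tested genes.

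With each library left out in turn, 13 members were lower in all 8 TMM fits: Adgre1, Cx3cr1, Csf1r, Itgb2, Ptprc, Lyz2, C1qa, C1qb, C1qc, Tyrobp, Laptm5, Ctss and Cybb (background 3.94% of tested genes). On the endocrine scale 8 were (background 2.36%), namely Adgre1, Cx3cr1, Itgb2, C1qa, C1qb, Laptm5, Ctss and Cybb. Under TMM the count of members called lower was 13 without Ide-/- replicate 1 (background 5.71%), 14 and 18 without Ide-/- replicates 2 and 3, and 17 to 23 without 1 Ide+/+ library. Under endocrine scaling it was 8, 10 and 11 without Ide-/- replicates 1, 2 and 3 (background 3.29, 2.86 and 3.09%), and 13 to 20 without 1 Ide+/+ library. The highest counts, 23 and 20, came without Ide+/+ replicate 1 (background 13.3 and 8.4%). No background share is given for the remaining counts, which are therefore not set against all genes.

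Scaled to total counts alone, with the acinar RNA in the denominator, only 4 members passed: Cx3cr1 at -2.58, Itgb2 at -1.77, Adgre1 at -1.65 and Ctss at -1.15 (edgeR adjusted p 0.014, 0.036, 0.039 and 0.034; background 1.73% lower). On this scale the median over all tested genes moved to 1.22, and 51.6% of genes were higher. The members' median was -0.37, which is -1.59 relative to that shift, and no member was higher at an adjusted p under 0.05. Groups were fully separated downward for Adgre1, Cx3cr1 and Ctss, against 2.02% of tested genes. They were separated upward for Mertk, whose estimate of 1.07 lay below the median over all tested genes. No background share is given for upward separation. Leaving out Ide+/+ replicate 1 gave 23 members lower under TMM (background 13.3%), 20 under endocrine scaling (background 8.4%) and 8 under total counts (background 2.2%). The members gained were Cd86, Aif1 and Fcer1g under TMM and Itgax, Trem2 and Apoe under endocrine scaling, and 0 were lost. The 8 were those 4 with Lyz2, C1qb, Lgals3 and Cybb.

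**Figure D2:**
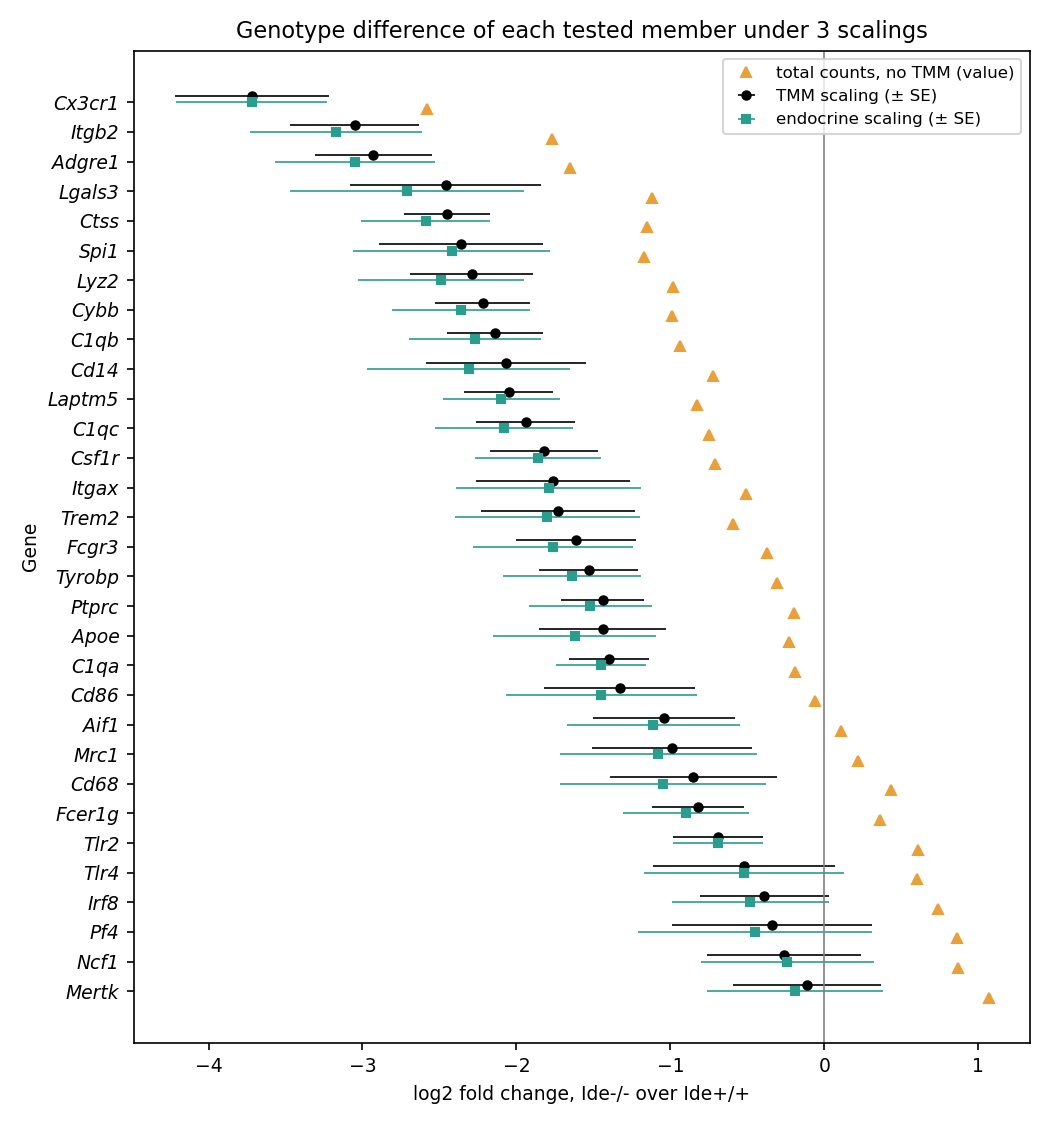
Log2 fold change (horizontal axis, Ide-/- over Ide+/+) of the 31 tested members under TMM scaling, endocrine scaling (both with their SE) and total counts (value only). TMM and endocrine estimates nearly coincide and lie below 0 for all 31 genes, while the total-count estimates are shifted upward and cross 0 in 10 genes.

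Of the surface receptors and transcription factors that define macrophages, the F4/80 antigen, the fractalkine receptor, the CSF1 receptor and PU.1 were lower in the Ide-/- libraries, and CD68, AIF1 and IRF8 were not called. Adgre1, which encodes F4/80, stood at 2.81, 3.11, 3.31, 2.42 and 5.26 in the Ide+/+ libraries and 0.501, 0.285 and 0.55 in the Ide-/- libraries on the TMM-scaled CPM scale. The groups were far apart, with a log2 fold change of -2.93 ± 0.38 (SE; edgeR adjusted p = 0.00081). Cx3cr1, which encodes the receptor for fractalkine and marks resident macrophages and microglia, stood at 3.11, 4.02, 2.45, 1.89 and 1.4 in the Ide+/+ libraries and 0.167, 0.285 and 0.0917 in the Ide-/- libraries. Its highest Ide-/- value was below its lowest Ide+/+ value, and its log2 fold change of -3.72 ± 0.50 (SE; edgeR adjusted p = 0.00086) was the lowest estimate among the 31 tested members. Cx3cr1 rested on 6, 7 and 1 counts in the Ide-/- libraries. Its annotated span also covers other transcribed genes, among them Wdr48 and Gorasp1 with 2294 and 1766 summed counts beside 317 of Cx3cr1, and the strand setting of the counting is not given in the sources used here.

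Csf1r, which encodes the receptor for CSF1 and IL-34 that macrophages need to survive, stood at 2.5, 6.06, 6.75, 5.54 and 4.08 in the Ide+/+ libraries and 1.34, 1.18 and 1.93 in the Ide-/- libraries. The groups did not overlap on this scale, at a log2 fold change of -1.82 ± 0.35 (SE; edgeR adjusted p = 0.0046), but did on the endocrine scale (-1.86; edgeR adjusted p = 0.011). The gene overlaps Hmgxb3 on the other strand, with 1393 summed counts beside 683. Spi1 was scarce, at 0.501, 0.967, 0.782, 0.353 and 1.18 in the Ide+/+ libraries and 0.111, 0.163 and 0.183 in the Ide-/- libraries. All 3 Ide-/- values lay below the 5 Ide+/+ values, at a log2 fold change of -2.36 ± 0.53 (SE; edgeR adjusted p = 0.011). Spi1 rested on 4, 4 and 2 counts in the Ide-/- libraries. With each library left out in turn, it passed the filter in 5 of the 8 fits. Of those 5 it was lower in 3 under TMM and in 2 under endocrine scaling.

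Cd68, a lysosomal membrane glycoprotein used as a general macrophage marker, had 0.802, 2.75, 2.52, 2.24 and 7.62 in the Ide+/+ libraries and 1.28, 1.67 and 2.38 in the Ide-/- libraries. Its Ide-/- values fell inside the Ide+/+ range, and its estimate was -0.85 ± 0.54 (SE; edgeR adjusted p = 0.28). Aif1, the actin-binding protein IBA1, overlapped in the same way at -1.04 (edgeR adjusted p = 0.13). Without Ide+/+ replicate 1 Aif1 was lower, at -1.24 (edgeR adjusted p = 0.044). Irf8 stood at 1.29 ± 0.569 CPM (SD, n = 5) in the Ide+/+ and 0.987 ± 0.227 CPM (SD, n = 3) in the Ide-/- libraries, with an estimate of -0.39 (edgeR adjusted p = 0.53); it shares its locus with Gm20388, which had 2130 summed counts beside 226 of Irf8.

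Of the leukocyte adhesion and signalling proteins, the common leukocyte antigen, the beta-2 integrin chain and the lysosomal protein LAPTM5 fell. Ptprc, which encodes CD45, a phosphatase on all leukocytes, stood at 3.21, 4.38, 4.16, 4.42 and 5.69 in the Ide+/+ libraries and 1.42, 1.42 and 2.11 in the Ide-/- libraries. The lowest Ide+/+ value was above the highest Ide-/- value, and the log2 fold change was -1.44 ± 0.27 (SE; edgeR adjusted p = 0.0046). Itgb2, the chain shared by the leukocyte integrins, stood at 1.9, 2.11, 2.38, 2.53 and 3.97 in the Ide+/+ libraries and 0.195, 0.447 and 0.275 in the Ide-/- libraries. That separation was wider, at a log2 fold change of -3.05 ± 0.42 (SE; edgeR adjusted p = 0.00093).

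The alpha chains that pair with ITGB2 lie 11.1 kb apart on chromosome 7. Itgax, which encodes CD11c and is expressed by most islet macrophages, stood at 0.701, 1.04, 1.24, 1 and 1.4 in the Ide+/+ libraries and 0.195, 0.203 and 0.733 in the Ide-/- libraries. One Ide-/- library reached the lowest Ide+/+ values, and the estimate was -1.76 ± 0.50 (SE; edgeR adjusted p = 0.028). Itgam, which encodes CD11b, was near the detection limit and did not pass the filter, with raw counts of 0, 15, 4, 2 and 3 in the Ide+/+ libraries and 1, 3 and 0 in the Ide-/- libraries. Its estimate without the filter was -1.78 (edgeR adjusted p = 0.25). Laptm5, a lysosomal membrane protein of blood cells, stood at 3.61, 4.74, 3.73, 3.89 and 4.08 in the Ide+/+ libraries and 0.919, 0.732 and 1.38 in the Ide-/- libraries. The groups were well apart, at a log2 fold change of -2.05 ± 0.29 (SE; edgeR adjusted p = 0.00096).

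**Figure D3:**
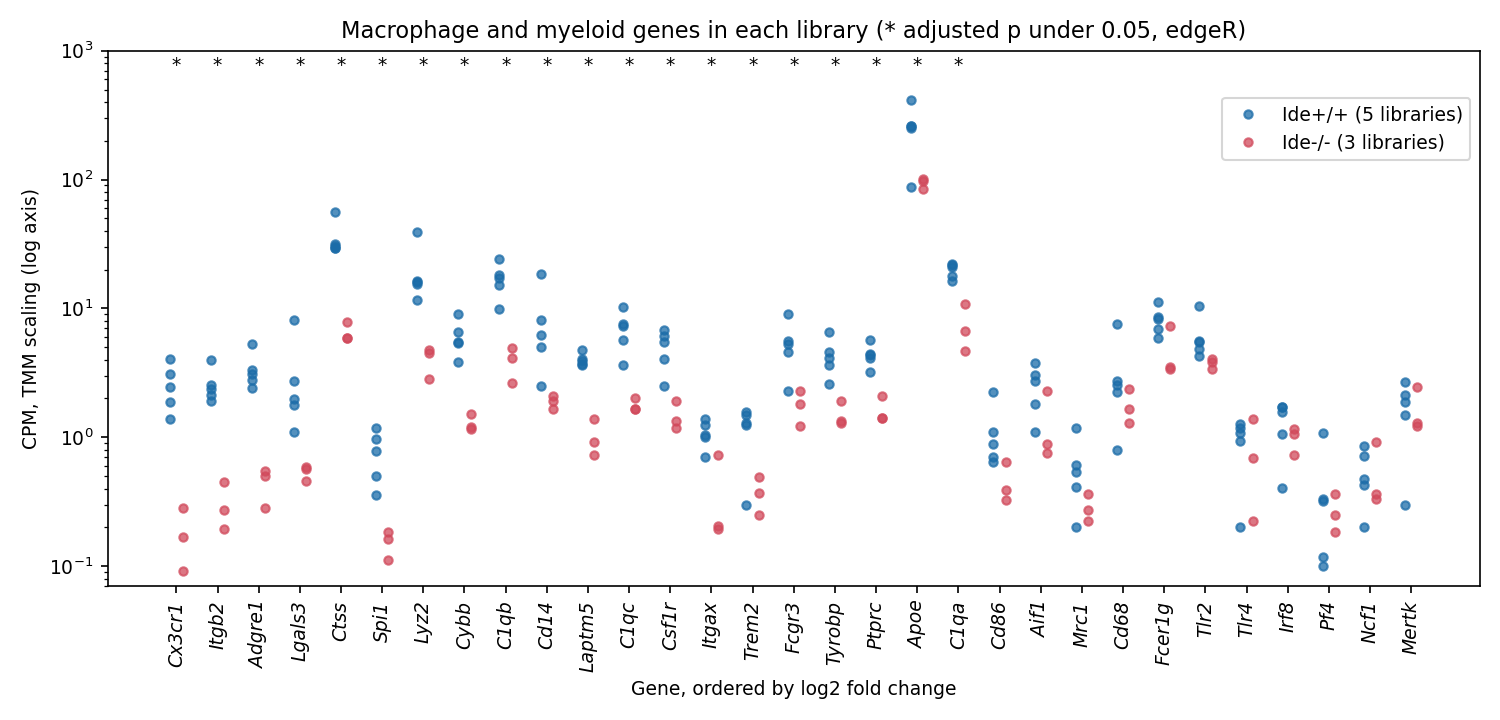
TMM-scaled CPM (vertical log axis) of the 31 tested members in each of the 5 Ide+/+ (blue) and 3 Ide-/- (red) libraries, ordered by log2 fold change; an asterisk marks an adjusted p under 0.05. From Cx3cr1 to C1qa most red points lie below all blue points, and from Cd86 to Mertk most genes overlap.

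Complement C1q, the lipid receptor TREM2 with its adaptor TYROBP, and the IgG receptor gene Fcgr3 were lower, and Fcer1g was not called. C1qa, C1qb and C1qc encode the 3 chains of C1q, which tags debris and dying cells for uptake, and their genes lie side by side on chromosome 4 (GRCm38, chr4:136880129-136898803). C1qa stood at 20.8, 21.6, 21.9, 16.4 and 17.9 in the Ide+/+ libraries and 6.74, 10.9 and 4.67 in the Ide-/- libraries. C1qb stood at 9.82, 18.3, 17.4, 15.2 and 24 in the Ide+/+ libraries and 4.09, 2.64 and 4.95 in the Ide-/- libraries. C1qc stood at 3.61, 7.31, 7.57, 5.65 and 10.2 in the Ide+/+ libraries and 1.64, 2.03 and 1.65 in the Ide-/- libraries. For each chain every Ide-/- library lay below every Ide+/+ library. The log2 fold changes were -1.40 ± 0.26 (SE; edgeR adjusted p = 0.004) for C1qa, -2.14 ± 0.31 (SE; edgeR adjusted p = 0.0011) for C1qb and -1.94 ± 0.32 (SE; edgeR adjusted p = 0.0023) for C1qc. Within the Ide-/- group C1qa varied more (SD 3.15 CPM) than C1qb (1.17) or C1qc (0.224).

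Tyrobp, which encodes the adaptor DAP12 that carries the signal of TREM2, stood at 2.6, 4.1, 4.62, 3.65 and 6.54 in the Ide+/+ libraries and 1.34, 1.3 and 1.93 in the Ide-/- libraries. The groups were separate, at a log2 fold change of -1.53 ± 0.32 (SE; edgeR adjusted p = 0.0077). Trem2, a receptor for lipids and apolipoproteins, had 0.301, 1.58, 1.28, 1.24 and 1.5 in the Ide+/+ libraries and 0.251, 0.488 and 0.367 in the Ide-/- libraries. Its low value in Ide+/+ replicate 1 overlapped the Ide-/- group, and its estimate was -1.73 ± 0.50 (SE; edgeR adjusted p = 0.03).

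Fcer1g, the common Fc receptor gamma chain and the other ITAM-bearing adaptor of these cells, did not follow Tyrobp at the same threshold. It stood at 5.91, 8.63, 8.28, 6.89 and 11.2 in the Ide+/+ libraries and 3.4, 3.54 and 7.33 in the Ide-/- libraries, with an estimate of -0.82 ± 0.30 (SE; edgeR adjusted p = 0.07) and 1 Ide-/- library inside the Ide+/+ range. It passed without Ide+/+ replicate 1 (edgeR adjusted p = 0.034) and without Ide-/- replicate 3 (0.024). Fcer1g was also lower with no filter (edgeR adjusted p = 0.049), under DESeq2 (adjusted p = 0.044) and under limma-voom (adjusted p = 0.028). On the endocrine scale it was not called (-0.90; edgeR adjusted p = 0.16). Fcgr3, a low-affinity IgG receptor that signals through FCER1G, stood at 5.35 ± 2.42 CPM (SD, n = 5) in the Ide+/+ and 1.77 ± 0.537 CPM (SD, n = 3) in the Ide-/- libraries and fell at a log2 fold change of -1.61 ± 0.39 (SE; edgeR adjusted p = 0.014). Fcgr2b and Fcgr4 are close relatives of it, so the split of reads among them is uncertain. Fcgr1, the high-affinity IgG receptor, did not pass the filter, with raw counts of 5, 33, 30, 6 and 8 in the Ide+/+ libraries and 5, 5 and 0 in the Ide-/- libraries. Fitted without the filter it was lower, at -2.40 (edgeR adjusted p = 0.0092).

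Among lysosomal, oxidase and secreted products, cathepsin S, lysozyme, the NADPH oxidase chain and galectin-3 were lower. Ctss, a cysteine protease that trims the MHC class II invariant chain, stood at 30.7, 29.7, 31.5, 29.6 and 56.3 in the Ide+/+ libraries and 5.93, 5.86 and 7.79 in the Ide-/- libraries. The groups were separate, and Ctss, Adgre1 and Cx3cr1 were the 3 members that were both separated and called under TMM, endocrine and total-count scaling. Its TMM log2 fold change was -2.45 ± 0.28 (SE; edgeR adjusted p = 0.0005). Lyz2, the lysozyme of macrophages and neutrophils, stood at 11.6, 16.1, 15.5, 16.4 and 39.3 in the Ide+/+ libraries and 2.84, 4.8 and 4.49 in the Ide-/- libraries. The groups were separate at -2.29 ± 0.40 (SE; edgeR adjusted p = 0.0029), with Ide+/+ replicate 5 far above the rest; the paralog Lyz1 had at most 1 count in any library.

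Cybb, the catalytic chain of the phagocyte NADPH oxidase, stood at 3.81, 5.5, 6.58, 5.42 and 9.12 in the Ide+/+ libraries and 1.17, 1.5 and 1.19 in the Ide-/- libraries. Every Ide-/- value was below every Ide+/+ value, at a log2 fold change of -2.22 ± 0.31 (SE; edgeR adjusted p = 0.00095). Its cytosolic partner Ncf1 stood at 0.533 ± 0.255 CPM (SD, n = 5) in the Ide+/+ and 0.539 ± 0.328 CPM (SD, n = 3) in the Ide-/- libraries, with an estimate of -0.26 (edgeR adjusted p = 0.75); it overlaps Gtf2ird2 on the other strand, with 847 summed counts beside 97.

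Lgals3, which encodes a galactose-binding lectin secreted by macrophages and other cells, stood at 1.1, 1.99, 2.74, 1.77 and 8.15 in the Ide+/+ libraries and 0.585, 0.569 and 0.458 in the Ide-/- libraries. The Ide-/- libraries were nearly equal and below all Ide+/+ libraries, at a log2 fold change of -2.46 ± 0.62 (SE; edgeR adjusted p = 0.017). Apoe stood at 87, 252, 259, 259.6 and 418 in the Ide+/+ libraries and 97, 84 and 102 in the Ide-/- libraries. Ide+/+ replicate 1 was among the Ide-/- values and the other 4 Ide+/+ libraries were above them, at a log2 fold change of -1.44 ± 0.41 (SE; edgeR adjusted p = 0.029).

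Of the innate sensing genes, CD14 fell, the Toll-like receptors were not called and the cytokines were too scarce to pass the filter. Cd14, a co-receptor for bacterial lipopolysaccharide, stood at 2.5, 5.01, 6.26, 8.13 and 18.4 in the Ide+/+ libraries and 1.67, 2.07 and 1.93 in the Ide-/- libraries. The groups were separate but the Ide+/+ libraries spread widely, at a log2 fold change of -2.07 ± 0.52 (SE; edgeR adjusted p = 0.017). Tlr4, the lipopolysaccharide receptor itself, overlapped between groups at -0.52 (edgeR adjusted p = 0.55). Tlr2, which senses bacterial lipoproteins, was lower in all 3 Ide-/- libraries without passing the test, at -0.69 (edgeR adjusted p = 0.11). Cd86, a co-stimulatory ligand for T cells, behaved likewise at -1.33 (edgeR adjusted p = 0.074) and passed under DESeq2 (adjusted p = 0.042) and without Ide+/+ replicate 1 (edgeR adjusted p = 0.048).

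Il1b, which encodes the inflammasome product interleukin-1 beta, failed the low-count filter, with raw counts of 4, 31, 22, 6 and 4 in the Ide+/+ libraries and 1, 5 and 2 in the Ide-/- libraries. Tnf also failed it, with 0, 5, 6, 1 and 0 in the Ide+/+ libraries and 2, 3 and 3 in the Ide-/- libraries. Fitted without the filter, Il1b was lower at -2.21 (edgeR adjusted p = 0.025), and Tnf had an estimate of 0.27 (edgeR adjusted p = 0.88). Pf4, a chemokine of platelets that resident macrophages also express, stood at 0.388 ± 0.398 CPM (SD, n = 5) in the Ide+/+ and 0.267 ± 0.0924 CPM (SD, n = 3) in the Ide-/- libraries, with an estimate of -0.34 (edgeR adjusted p = 0.74).

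Neither Mrc1 nor Mertk, 2 receptors of clearing macrophages, passed the test. Mrc1, the mannose receptor, stood at 0.587 ± 0.366 CPM (SD, n = 5) in the Ide+/+ and 0.288 ± 0.0725 CPM (SD, n = 3) in the Ide-/- libraries, with an estimate of -0.99 (edgeR adjusted p = 0.19). Cd163, a receptor for haemoglobin complexes, did not pass the filter, with raw counts of 3, 12, 10, 3 and 6 in the Ide+/+ libraries and 3, 2 and 1 in the Ide-/- libraries. Its estimate without the filter was -1.93 (edgeR adjusted p = 0.095). Mertk, a receptor kinase that binds dying cells through GAS6, stood at 0.301, 1.5, 1.88, 2.71 and 2.15 in the Ide+/+ libraries and 1.23, 1.3 and 2.48 in the Ide-/- libraries. The groups overlapped fully on the TMM scale, and the estimate of -0.11 ± 0.48 (SE; edgeR adjusted p = 0.89) was the one closest to 0 among the 31. On total counts Mertk was at 1.07, which is -0.15 relative to the median of all genes on that scale. The groups were separated upward there, with no background share given.

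Levels between genes were compared as TPM, which divides by transcript length. In the Ide+/+ libraries Apoe was the most abundant member at 208 ± 106 TPM (mean ± SD, n = 5), followed by Ctss at 20.2 ± 6.99, C1qa at 16.3 ± 8.2, C1qb at 13.2 ± 6.57, Lyz2 at 11.5 ± 4.96 and Fcer1g at 11.2 ± 5.17. From Ctss to Fcer1g these neighbours did not differ beyond their SD. At the other end 20 of the 36 members averaged below 1 TPM, with Itgam the lowest at 0.042 ± 0.046. In the Ide-/- libraries Apoe again came first at 128 ± 19.6 (n = 3), with Fcer1g at 10.9 ± 3.4 and C1qa at 10.8 ± 5.33 next and Ctss after them at 6.73 ± 0.29. Cx3cr1 moved from rank 23 to rank 33, Adgre1 from 20 to 28 and Itgb2 from 21 to 30, while Mertk moved from 27 to 15.

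How far the members differed among themselves was described by dividing each member's counts by those of Ptprc in the same library. This takes the islet and acinar RNA out of the denominator, but a member's RNA from other cells stays in its counts. Ptprc had 32, 172, 117, 75 and 53 counts in the Ide+/+ libraries and 51, 35 and 23 in the Ide-/- libraries. The ratio to Ptprc was chosen after the values were seen and carries no test. Of 35 members, 8 had a lower ratio in all 3 Ide-/- libraries than in all 5 Ide+/+ libraries, beside 1.76% of all other tested genes. They were Adgre1, Cx3cr1, Itgb2, Lyz2, C1qb, Laptm5, Ctss and Cybb. A higher ratio in all 3 was found for Fcer1g, Ncf1 and Mertk, beside 61.9% of all tested genes, a share that follows from Ptprc itself being lower in the Ide-/- group.

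Per 100 Ptprc counts, Adgre1 had 87.5, 70.9, 79.5, 54.7 and 92.5 in the Ide+/+ libraries and 35.3, 20 and 26.1 in the Ide-/- libraries. Cx3cr1 had 96.9, 91.9, 59, 42.7 and 24.5 in the Ide+/+ libraries and 11.8, 20 and 4.35 in the Ide-/- libraries. Ctss had 956, 677, 758, 669 and 991 in the Ide+/+ libraries and 418, 411 and 369.6 in the Ide-/- libraries. In each of these the highest Ide-/- ratio lay below the lowest Ide+/+ ratio. Fcer1g had 184, 197, 199, 156 and 196 in the Ide+/+ libraries and 239, 249 and 348 in the Ide-/- libraries, and Mertk had 9.38, 34.3, 45.3, 61.3 and 37.7 in the Ide+/+ libraries and 86.3, 91.4 and 117 in the Ide-/- libraries, with the order of the groups turned around. C1qa, Tyrobp, Csf1r and Apoe overlapped, so their level against Ptprc was not distinguishable. Taken per Tyrobp count, 5 members were lower in all Ide-/- libraries and 3 higher, beside 1.59% and 58.3% of all other tested genes.

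**Figure D4:**
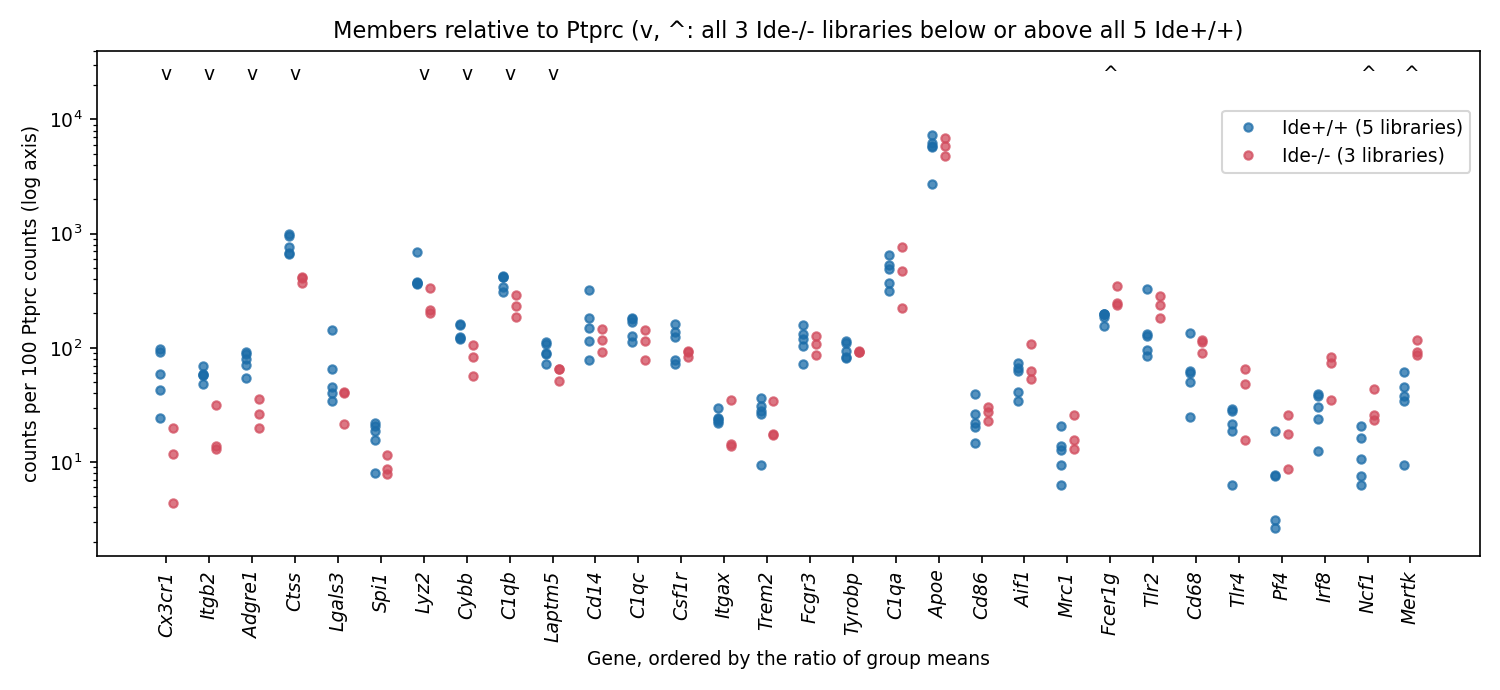
Counts per 100 Ptprc counts (vertical log axis) of the other 30 tested members in each library, ordered by the ratio of group means. A v marks genes whose 3 Ide-/- ratios (red) all lie below the 5 Ide+/+ ratios (blue), as in Cx3cr1 and Ctss, and a ^ marks the reverse, as in Mertk.

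Within the Ide+/+ group the high and low values gathered in 2 libraries. On the TMM scale replicate 5 was the highest of the 5 libraries for 21 of the 31 tested members, beside 21.1% of all tested genes, and replicate 1 was the lowest for 24, beside 36.5%. Replicate 4 was the highest for 1 member and the lowest for 6. The acinar shares of replicates 1, 4 and 5 were 66.3, 59.9 and 61.1%. Their part in the spread of the members was not tested.

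Further lists held genes that work with the members. They were drawn up, like the members, with earlier results of these data known. Under TMM, the scale used for them, 10.6% of all tested genes were lower and 10.4% higher. Of 25 other myeloid surface and adhesion genes, 17 were tested, 7 were lower and 1 higher, with a median log2 fold change of -1.27. Lair1, an inhibitory collagen receptor, had 2.6, 1.5, 2.17, 2.18 and 3 against 0.195, 0.529 and 0.458 CPM (Ide+/+ against Ide-/-) and fell (log2 fold change -2.57 ± 0.43 SE, edgeR adjusted p = 0.0023). Siglech, a lectin of plasmacytoid dendritic cells and microglia, fell (log2 fold change -2.76 ± 0.54 SE, edgeR adjusted p = 0.0054). The complement, Fc and phagocytosis genes had 3 lower and 1 higher of 13 tested (median -0.38). C3ar1, the receptor for complement C3a, fell (log2 fold change -2.15 ± 0.37 SE, edgeR adjusted p = 0.0029). Gas6, the ligand of MERTK, fell too (log2 fold change -1.61 ± 0.35 SE, edgeR adjusted p = 0.0083). Elmo1, an engulfment adaptor, rose (log2 fold change 0.98 ± 0.21 SE, edgeR adjusted p = 0.0082).

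Downstream of TYROBP and FCER1G, 4 of 12 tested genes of SYK signalling were lower and 0 higher (0 also at an unadjusted p; median -1.13), including the adaptor gene Blnk (log2 fold change -2.22 ± 0.50 SE, edgeR adjusted p = 0.011) and the actin regulator Coro1a (log2 fold change -2.11 ± 0.43 SE, edgeR adjusted p = 0.0068). Of 15 oxidase and lysosome partners 7 were lower and 0 higher (0 at an unadjusted p; median -0.92). Of the lysosomal protease genes, which many other cells also express, Ctsd fell (log2 fold change -1.46 ± 0.28 SE, edgeR adjusted p = 0.0046), as did Ctsb (log2 fold change -1.50 ± 0.30 SE, edgeR adjusted p = 0.0057). Grn, which encodes a lysosomal growth factor precursor, also fell (log2 fold change -1.31 ± 0.22 SE, edgeR adjusted p = 0.0028). The Toll-like receptor and NF-kB genes had 2 lower and 1 higher of 12 (median -0.53). Their called genes were Ly86, Myd88 and Nfkb1.

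Among the growth factors, chemokines and adhesion molecules that macrophages respond to, 5 of 8 tested genes were lower and 0 higher (0 at an unadjusted p; median -1.53). Csf1, a ligand of CSF1R, had 1.6, 3.26, 2.92, 2.06 and 1.4 against 0.807, 0.285 and 1.01 CPM. All Ide-/- values lay below the Ide+/+ values (log2 fold change -1.78 ± 0.45 SE, edgeR adjusted p = 0.017). Il34, the other ligand, overlapped (log2 fold change -0.57 ± 0.54 SE, edgeR adjusted p = 0.48). Cx3cl1, which encodes fractalkine, fell (log2 fold change -1.36 ± 0.36 SE, edgeR adjusted p = 0.021). So did the chemokine gene Cxcl16 (log2 fold change -1.70 ± 0.33 SE, edgeR adjusted p = 0.0055) and the adhesion molecule gene Icam1 (log2 fold change -1.88 ± 0.40 SE, edgeR adjusted p = 0.0079). Il34 and Cx3cl1 were named after their values were seen, as the ligands of 2 members.

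The cytokine genes had 1 lower and 1 higher of 7 tested. Igf1, a growth factor that macrophages can secrete, had 63.8, 12.6, 13, 31.2 and 43.8 against 1.48, 1.75 and 2.2 CPM. Its Ide+/+ level was highest in replicates 1 and 5, which also had the highest acinar shares, and it fell (log2 fold change -4.21 ± 0.59 SE, edgeR adjusted p = 0.001). Whether acinar tissue had a part in the Igf1 values was not tested. Vegfa rose (log2 fold change 1.13 ± 0.32 SE, edgeR adjusted p = 0.027). Of the activation lists, the alternative activation genes had 2 lower of 6 tested (Spp1 and Cd83; median -0.57). Spp1 is also in the duct list. The inflammatory genes had 0 called of 5 by edgeR (2 lower and 0 higher at an unadjusted p; median 0.08). The myeloid transcription factors other than Spi1 and Irf8 had 2 lower of 12, Cebpa and Runx1, with a median of -0.15.

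**Figure D5:**
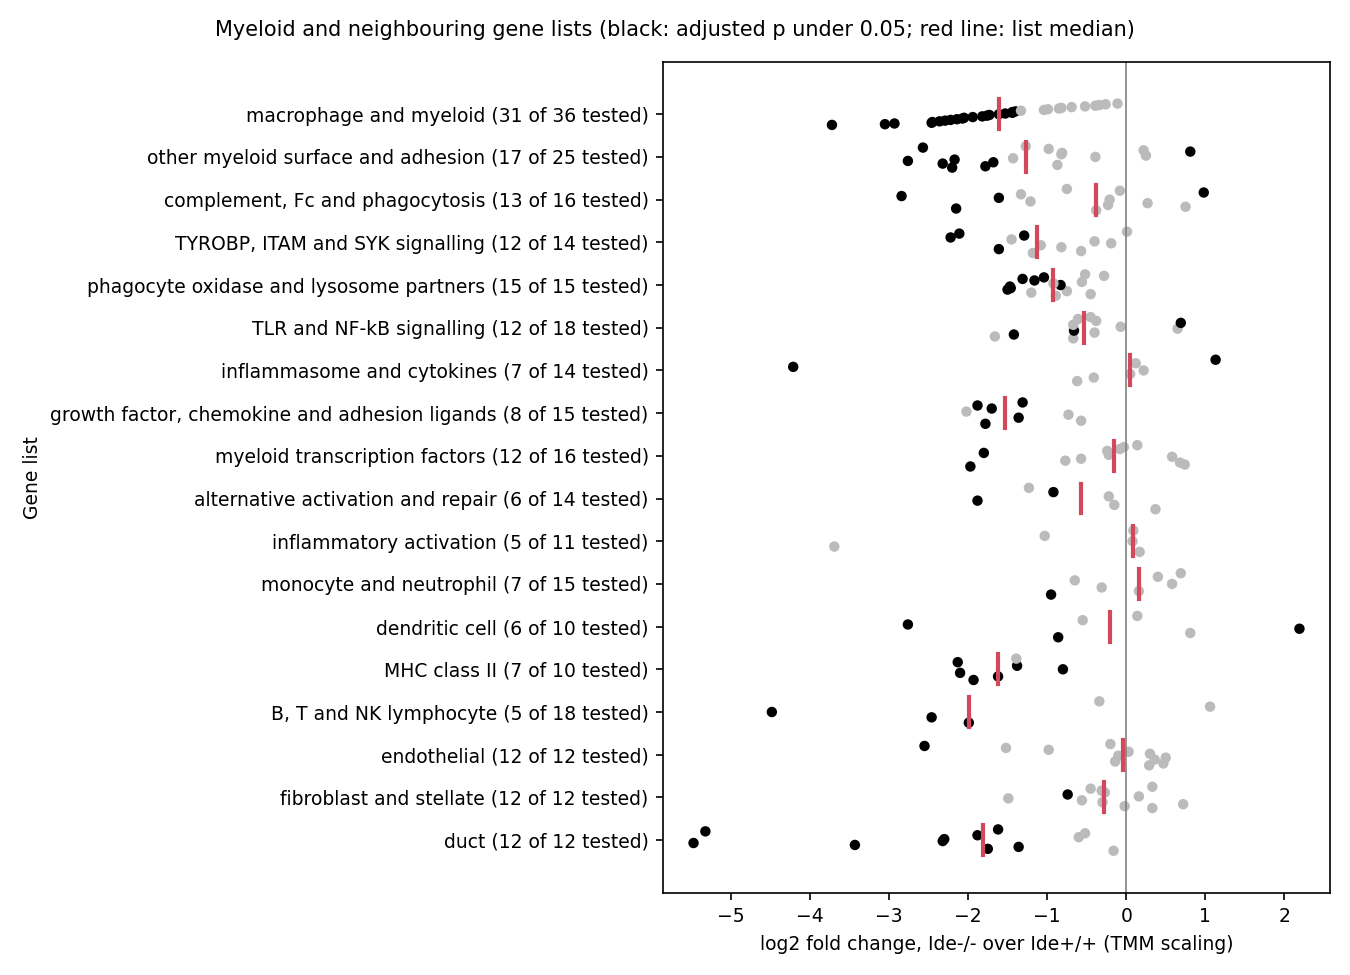
Log2 fold change (horizontal axis, Ide-/- over Ide+/+, TMM scaling) of every tested gene in each list drawn, 1 point a gene. Black points had an adjusted p under 0.05 and red lines mark list medians. The acinar, mast cell, endocrine reference and hormone lists are not drawn. The macrophage, MHC class II, ligand, lymphocyte and duct lists have medians below -1.5, and the endothelial, fibroblast and monocyte lists have medians near 0.

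Markers of other cells in the preparation were lower in part: MHC class II, acinar and duct genes mostly fell, whereas few monocyte, endothelial and fibroblast genes were called. MHC class II genes, shared by macrophages, dendritic cells and B cells, were lower in 6 of 7 tested (median -1.62), with a summed level of 355.9 to 652 CPM in the Ide+/+ and 89.0 to 164.5 CPM in the Ide-/- libraries. Of 18 lymphocyte genes only 5 were tested. Cd79a, Ighm and Igkc of B cells were lower, the summed level was 4.42 to 20.4 against 2.84 to 3.46 CPM, and Cd8a and Klrb1c were at 0 in all 8 libraries. Monocyte and neutrophil genes had 1 lower of 7 tested (Ccr2, log2 fold change -0.95 ± 0.28 SE, edgeR adjusted p = 0.036; list median 0.16, and -0.03 on the endocrine scale) and summed levels of 6.11 to 13.3 against 6.71 to 7.70 CPM. Mpo, Elane and Ly6g, which define neutrophils, were at 0 throughout. The dendritic cell genes had 2 lower and 1 higher of 6, with Itgae higher (log2 fold change 2.19 ± 0.38 SE, edgeR adjusted p = 0.0031) and Siglech, which is in 2 of the lists, among the lower. All 35 acinar genes fell (median -6.34), as did 9 of 12 duct genes (median -1.81). Endothelial and fibroblast genes had 1 lower of 12 each (Vwf and Acta2; medians -0.04 and -0.28). On the endocrine scale the calls of Myd88, Nfkb1, Vegfa, Spp1, Cd83, Runx1, Ccr2 and Acta2 were lost, and the others named from these lists were kept. Under total counts, Igf1 and Igkc were the genes still lower among the lists other than the acinar and duct lists and the members. Without Ide+/+ replicate 1, under TMM, the genes called lower were 8 of 16 other myeloid surface genes, 5 of 13 complement and phagocytosis genes, 6 of 12 SYK signalling genes, 7 of 15 oxidase and lysosome genes and 4 of 12 Toll-like receptor and NF-kB genes. They were 1 of 7 cytokine genes, 5 of 7 ligand genes, 3 of 12 transcription factors, 2 of 6 alternative and 2 of 5 inflammatory activation genes. MHC class II genes were lower in 7 of 7, lymphocyte genes in 2 of 4, dendritic cell genes in 1 of 5, duct genes in 9 of 12, and monocyte, endothelial and fibroblast genes in 1 each. Across all tested genes 13.3% were lower in this fit. Of these lists, the myeloid surface, complement, cytokine and dendritic cell lists had 1 gene higher each. The Toll-like receptor and NF-kB list had 2 higher, with Irak1 gained. Siglech and Igkc no longer passed the low-count filter without that library, so they have no value there. Whether the macrophage genes of the Ide+/+ libraries came with the exocrine tissue in them was not tested.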

How the data were processed

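Islet RNA-seq libraries of 5 Ide+/+ and 3 Ide-/- samples were analysed. The deposited values are RSEM expected counts and TPM per Ensembl gene, which the authors made with STAR 2.7.1a and RSEM 1.3.1 on GRCm38, per the submitters' processing notes. The annotation release and strand setting are not given in the sources used here. Expected counts were rounded to whole numbers. Symbols came from GENCODE M21 and matched 55227 of the 55487 identifiers. Counts were tested with edgeR 4.0.16 (R 4.3.3; robust quasi-likelihood fit, filterByExpr with a minimum count of 10 and total of 15, Benjamini-Hochberg adjustment over all tested genes, threshold 0.05), after TMM scaling or scaling to the median ratio of 28 endocrine genes. Each SE was derived as the size of the log2 fold change over the square root of the test's F statistic. The fit was tested on simulated data. Those data held no acinar difference between the groups, so they cannot show how the fit handles one. Alternatives used DESeq2 1.42.0, limma 3.58.1 on log2(TPM + 1) and log2(TPM + 0.1), other denominators, no filter, a replicate block and leaving out each library. Counting depth limits scarce genes: 5 members failed the filter.

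The members and lists were chosen with earlier results of these data known. Named were Ide, all 36 members and, from each other list, up to 3 called genes of smallest p, or else the 2 tested genes of highest mean CPM; Il34 and Cx3cl1 were added later. A planned search of protein sequences was not run.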

Additional observations from a re-analysis of the deposited data

Results flagged for a closer look

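Among the Ide+/+ libraries, 8 members had 1 library whose gap to the nearest other library took up an unusually large part of the group's range (Dixon's test at 95%, 39 tests run, of which chance alone flags about 1 in 20). Replicate 5 stood above the other 4 libraries on the TMM-scaled CPM scale for Cd68 (7.62), Cd86 (2.25), Lyz2 (39.3), Ctss (56.3), Lgals3 (8.15) and Pf4 (1.07). Replicate 1 stood below the others for Trem2 (0.301) and above them for Tlr2 (10.5). Ctss and Lyz2 passed the test with and without either library under TMM scaling. Acinar genes took 61.1% of the counts in replicate 5, 66.3% in replicate 1 and 59.9% in replicate 4. Their part in these values was not tested.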

How the results depend on the processing

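Under TMM scaling the number of members called lower (20) stayed within 1.5 times of itself with no filter (22), DESeq2 (22), limma-voom (21), summed hormone counts (20) and non-acinar totals (16). It was 4 on total counts (median log2 fold change -0.37), 8 on total counts without Ide+/+ replicate 1 (-0.70; added after the data were seen), 7 on log2(TPM + 1) (-0.43) and 5 on log2(TPM + 0.1) (-0.56). TPM, like total counts, keeps the acinar RNA in the denominator. The background was 5.89% with no filter, 13.5% under DESeq2, 1.73% on total counts and 2.2% there without Ide+/+ replicate 1. No background share is given for the other alternatives, so their counts describe the members alone. Leaving out 1 library gave 13 to 23 under TMM (medians -1.84 to -1.43) and 8 to 20 under endocrine scaling (medians -2.02 to -1.34). No member was called higher in any of these fits. Per Ptprc count, leaving out 1 library gave 8 to 11 members lower and 3 to 5 higher, and per Tyrobp count 5 were lower.

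Deviations of same-numbered libraries of the 2 genotypes correlated at 0.08, 0.00 and -0.11, and those of differently numbered libraries at -0.39 to 0.33. So few pairs cannot exclude a pairing by number. With the replicate block, 12 members were lower under TMM and 10 under endocrine scaling, with no background share given. That fit takes no genotype difference from Ide+/+ replicates 4 and 5, which have no same-numbered Ide-/- library.

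Sign changes occurred in 11 members, none of them called in either fit. With the replicate block the TMM estimates of Mertk and Pf4 became 0.51 and 0.11, and the endocrine estimates of Cd68, Mertk and Pf4 0.02, 0.65 and 0.24. Mertk was at 0.11 (TMM) and 0.03 (endocrine) without Ide+/+ replicate 4, at 0.01 (endocrine) without Ide+/+ replicate 5, at 0.04 (TMM) without Ide-/- replicate 2 and at 0.09 on non-acinar totals. Without Ide-/- replicate 1, Mertk, Ncf1 and Tlr4 were at 0.08, 0.05 and 0.02 (TMM) and 0.03, 0.09 and 0.02 (endocrine). Over all fits that left out 1 library, the TMM estimates ran from -0.46 to 0.11 for Mertk, from -0.72 to 0.05 for Ncf1 and from -1.14 to 0.02 for Tlr4, and the endocrine estimates from -0.60 to 0.03, from -0.77 to 0.09 and from -1.22 to 0.02. On total counts Cd68, Aif1, Fcer1g, Mrc1, Mertk, Irf8, Ncf1, Tlr2, Tlr4 and Pf4 were at 0.43, 0.11, 0.36, 0.22, 1.07, 0.74, 0.87, 0.61, 0.60 and 0.86. Without Ide+/+ replicate 1 as well, Cd68, Fcer1g, Mertk, Irf8, Ncf1, Tlr2 and Tlr4 were at 0.14, 0.15, 0.77, 0.47, 0.58, 0.60 and 0.28. On log2(TPM + 1), Cd68, Cd86, Fcer1g, Mrc1, Mertk, Irf8, Ncf1, Tlr2, Tlr4 and Pf4 were at 0.25, 0.03, 0.04, 0.02, 0.34, 0.11, 0.16, 0.14, 0.05 and 0.27, and on log2(TPM + 0.1) at 0.47, 0.19, 0.05, 0.15, 0.97, 0.41, 0.72, 0.25, 0.22 and 0.62. The cause of these changes was not tested.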
